A study of Homo sapiens with 16 samples.

Results

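Antisense long non-coding RNAs are transcribed from the strand opposite a gene, and by convention carry that gene's symbol followed by -AS and a digit. They are made by RNA polymerase II and are often spliced and polyadenylated, so a method that primes on poly(A) tails can count them. Some share a start region with the gene they are named for, others lie within it or run into its 3′ end, and a few have described roles in transcription, mRNA stability or growth of cancer cells, while most have none. The RNAs described here are all GENCODE lncRNA genes whose symbol ends in -AS and 1 digit and whose mean raw count exceeded 20 over the 10 libraries of the transgene line, with OIP5-AS1 left out by the rule. Of 60107 genes in the count files, 1785 had such a name, 902 of these had at least 1 count in the 10 libraries, and 263 met the rule.

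The libraries were made from cytoplasmic RNA of U2OS-TR, human osteosarcoma cells that stably express the tetracycline repressor. The method is designed to give tags from the 3′ end of polyadenylated RNAs. The transgene line was 1 clone with an integrated, tetracycline-inducible ΔN-RNMT, an inactive and cytoplasmic form of the cap guanine-N7 methyltransferase RNMT, and gave 5 libraries without doxycycline (Control) and 5 after 24 h of doxycycline (Induced). The parental line, with the repressor and no transgene, gave 3 libraries without (No Dox) and 3 with (With Dox) the drug, which serve as the check on doxycycline itself. The sample labels list 1 μg/ml doxycycline, added 48 h into culture, for every sample, and only the titles tell the groups apart. The parental libraries were sequenced at another facility on another instrument with longer reads, so line and sequencing cannot be told apart. The study calls the 5 libraries of a transgene group biological replicates and the parental ones triplicate cultures.

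Gene counts per library ran from 18991617 to 23251834 in Control, 12527183 to 20781875 in Induced, 1578749 to 3214808 in No Dox and 1473286 to 2979789 in With Dox. Tags outside genes came to 0.0744 to 0.106 per gene count in the transgene line and 1.11 to 1.5 in the parental line. RNMT itself, which checks the labels, was 74.1 ± 22.3 CPM (counts per 1000000 gene counts, scaled by the trimmed mean of M values; SD, n = 5) in Control and 345 ± 77.8 (n = 5) in Induced, with no overlap. Among the osteoblast markers RUNX2 and COL1A1 were detected while BGLAP and IBSP had no count in the transgene libraries, and the leukocyte and endothelial markers PTPRC, CD3E and PECAM1 had group means below 0.5 CPM. Some context genes moved with induction by edgeR: RUNX2 rose by 1.16 on the log2 scale, the epithelial keratins KRT8 and KRT18 went from 99.5 to 75.1 and from 387 to 225 CPM (log2 fold changes -0.40 and -0.78), and the nuclear RNA NEAT1 from 315 to 231 CPM (-0.44), while MALAT1 was 534 and 544 CPM. The epithelial markers EPCAM and CDH1 went the other way. EPCAM had a log2 fold change of 0.61 and was not called (edgeR adjusted p = 0.0772). CDH1, too low to test, went from 0.514 to 1.64 CPM. The part of these context genes in the changes of the antisense RNAs was not tested. Control 5 and Induced 2 lay between the groups: Control 5 was the control library nearest to the induced ones in 2271 of the 2604 genes called higher and 2372 of the 2579 called lower, and Induced 2 was nearest to the controls in 2272 and 2150. In bulk RNA, fewer cells of a type and less RNA per cell cannot be told apart. Whether tags were counted by strand is not given in the sources used here, and 212 of the 263 antisense RNAs share exon bases with a gene on the other strand. Unless strand was used, tags of such a pair cannot be told apart.

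The 3′ ends of the RNAs that changed most are shown first, since the method is designed to tag RNAs next to their poly(A) tail. Each is the last 60 nt of the canonical transcript, read 5′ to 3′ on the transcript's strand from GRCh38, with the poly(A) signal nearest to the end, AATAAA or ATTAAA within the last 50 nt, in capitals. The first 4 RNAs were higher in Induced, and lie at chr10:131095718-131095777 (plus strand), chr19:48258140-48258199 (plus), chr10:73254290-73254349 (plus) and chr10:17214246-17214305 (minus). LIPT2-AS1, at chr11:74498474-74498533 (plus), was also higher and holds neither hexamer in this window.
TCERG1L-AS1: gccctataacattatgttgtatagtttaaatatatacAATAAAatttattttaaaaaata
CARD8-AS1: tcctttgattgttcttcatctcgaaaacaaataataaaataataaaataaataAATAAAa
DNAJC9-AS1: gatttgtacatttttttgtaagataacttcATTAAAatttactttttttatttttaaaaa
VIM-AS1: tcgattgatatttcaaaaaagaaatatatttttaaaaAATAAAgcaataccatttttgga
LIPT2-AS1: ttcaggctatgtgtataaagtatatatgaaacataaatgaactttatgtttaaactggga

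The next 4 were lower in Induced and stand for the large falls (DBH-AS1, HOXC-AS1) and for those of more abundant RNAs (MAPKAPK5-AS1, ASH1L-AS1). They lie at chr9:133654586-133654645 (minus), chr12:53999022-53999081 (minus), chr12:111839764-111839823 (minus) and chr1:155563885-155563944 (plus). For DDN-AS1, at chr12:49019206-49019235 (plus), the last 30 nt are given.
DBH-AS1: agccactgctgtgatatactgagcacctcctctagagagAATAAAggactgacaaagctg
HOXC-AS1: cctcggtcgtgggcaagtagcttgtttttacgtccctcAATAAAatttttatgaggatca
MAPKAPK5-AS1: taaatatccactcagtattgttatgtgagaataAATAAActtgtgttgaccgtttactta
ASH1L-AS1: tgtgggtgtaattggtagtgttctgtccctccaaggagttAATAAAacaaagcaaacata
DDN-AS1: cacacaacacaaAATAAAgtcttcacggga

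An AATAAA or ATTAAA stood within the last 50 nt of 52.9% of the 263 antisense RNAs, and 42.2% held AATAAA. The share was 78.4% over all tested genes with an annotated end, 82.5% over protein-coding genes and 60.5% over the other tested lncRNAs. Among the antisense RNAs it was 8 of the 17 called higher, 27 of the 52 called lower and 53.9% of those not called. Only the transcript strand was searched, and a match describes these letters without showing that the end is used. A C followed by 4 pyrimidines at the annotated start, the letters of a terminal oligopyrimidine tract, was present in 8 antisense RNAs (3.04%), against 5.12% of all tested genes.

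Levels were low. By design tags come from the 3′ end and not from the whole transcript, so CPM were not divided by transcript length. The mean CPM over the 10 transgene libraries, whose raw counts the rule used, ran from 1.08 to 102.6 with a median of 4.11. Of the RNAs 209 lay between 1 and 10 CPM, and 6 exceeded 50 CPM. The 10 most abundant RNAs held 27.8% of the summed level. Just outside the rule were MALT1-AS1, ATP2B1-AS1 and ADNP-AS1 with mean raw counts of 19.5, 19.6 and 20, and just inside it were FAM135A-AS1, LAMTOR5-AS1 and UBAC2-AS1 with 20.5, 20.5 and 20.7. The rule averaged both groups, and 234 RNAs had means above 20 counts in both, 11 only in Induced and 18 only in Control. RNAs of the last 2 kinds passed the rule only through the group in which they were high, so a difference between the groups was built into their choice. They supplied 6 of the 17 RNAs called higher below (TCERG1L-AS1, CARD8-AS1, VIM-AS1, FLG-AS1, LIPT2-AS1 and ZNF436-AS1) and 5 of the 52 called lower (DBH-AS1, FAM135A-AS1, MYG1-AS1, TMSB15B-AS1 and LIX1L-AS1), and the values of these 11 RNAs are a description.

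Summed over all members, the antisense RNAs made up 2321 ± 126 CPM (n = 5) in Control and 2149 ± 66.1 CPM (n = 5) in Induced. The Control libraries ran from 2215 to 2524 and the Induced libraries from 2057 to 2238, so the groups overlapped. As an unscaled share of gene counts the order was the other way, with 0.204 to 0.230% in Control and 0.229 to 0.244% in Induced. The direction of the sum therefore depended on the scaling between libraries.

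Of the 263 antisense RNAs, 262 passed the base mean filter. With edgeR's quasi-likelihood test and Benjamini-Hochberg adjustment over all tested genes, 17 were called higher and 52 lower in Induced at an adjusted p of 0.05. Over all 13038 genes tested 39.8% were called, 20% higher and 19.8% lower. Of the antisense RNAs 19.8% were called lower, a share at the background, and 6.49% higher. Over the 234 RNAs with means above 20 counts in both groups, 11 were called higher and 47 lower (4.70% and 20.1%), with a median log2 fold change of -0.11. Leaving out 1 library at a time gave 4 to 44 higher calls and 12 to 69 lower calls, the most without Control 5. The share of all genes called moved as well, from 14.3% without Induced 1 to 58.5% without Control 5. A call of a single RNA lost in such a fit is read beside these shares. The median log2 fold change of the 262 antisense RNAs was -0.12 (quartiles -0.52 and 0.35), beside 0.04 over all genes, 0.07 over protein-coding genes and -0.25 over the 755 other lncRNAs, of which 61 were called higher and 184 lower. The members' median turned to 0.10 under scaling to library totals, where that of all genes was 0.28, so it lay 0.17 below the median of all genes there, beside 0.16 with the scaling used here. With offsets for GC content the distance shrank to 0.06, with medians of -0.09 and -0.03. In 20 antisense RNAs the 5 Induced libraries all lay on one side of the 5 Control libraries, 5 above and 15 below, and over all genes 7.3% were apart in this way. With 1 surrogate variable in the fit none was called by edgeR, as for all but 1 of the 13038 genes, and 43 antisense RNAs had an unadjusted p under 0.05.

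**Figure D1:**
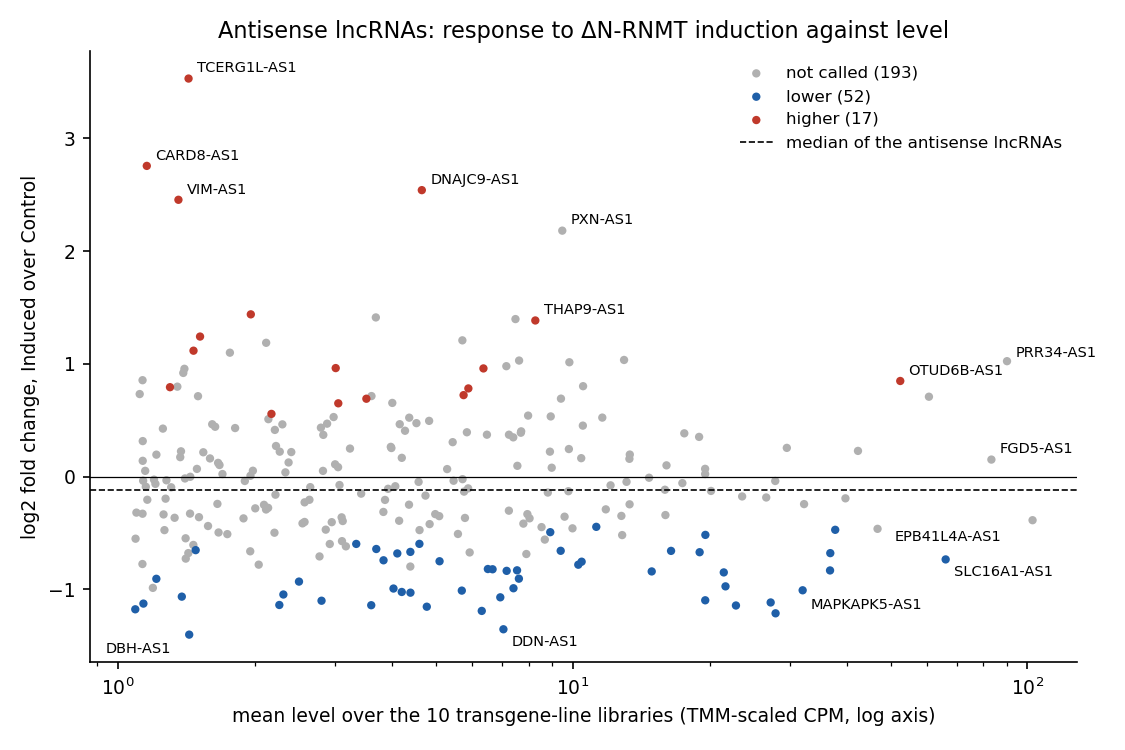
Log2 fold change of Induced over Control (vertical axis) against the mean level over the 10 transgene libraries in CPM (horizontal, log scale) for the 262 tested antisense RNAs, with called ones coloured. The 17 called higher lie mostly at low levels, TCERG1L-AS1 at the top with 3.53, and the 52 called lower spread over the whole range of levels.

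The median level of the RNAs called higher was 1.76 CPM in Control and 3.72 CPM in Induced. For those called lower it was 8.98 and 4.57 CPM, and for those not called 3.54 and 3.53 CPM. The calls themselves set part of these gaps, since a rise lowers and a fall raises the Control level relative to the Induced one. Of the 17 called higher, 11 had an Induced mean below 5 CPM. Of the 52 called lower, 14 had a Control mean above 20 CPM, whereas OTUD6B-AS1 was the 1 RNA above that level that was called higher. Summed over the 52 called lower, Control libraries 1 to 5 held 763, 849, 1061, 714 and 508 CPM and Induced libraries 1 to 5 held 388, 585, 401, 405 and 397. These sums were chosen by the calls and are a description. Control 5 lay below Induced 2, and all other Control libraries lay above all Induced ones. Among these antisense RNAs Control 5 was the control library nearest to the induced ones in 13 of the 17 higher and 44 of the 52 lower. With both libraries left out, an alternative added after seeing the data, edgeR called 50 higher and 78 lower of 249 tested. The same fit called 64.3% of all genes, beside 39.8% with all libraries.

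TCERG1L-AS1 had the largest log2 fold change. Its 2 exons form a 472 nt transcript at chr10:131095218-131095777 (GRCh38, plus strand), inside TCERG1L and on its other strand. It shares no exon base with that gene, which encodes a relative of a transcription elongation regulator. It held 0.101, 0.0583, 0.333, 0.0966 and 0.476 CPM in Control 1 to 5 and 4.84, 0.516, 3.42, 1.43 and 3.02 CPM in Induced 1 to 5. Every Induced library was above every Control library, but Induced 2 exceeded Control 5 only narrowly, and both held 11 counts. It met the rule through Induced, with mean raw counts of 4.4 in Control and 42.4 in Induced, so its log2 fold change of 3.53 ± 0.655 (SE) is given as a description with no test. TCERG1L itself was too low to test, at 0.0346 CPM in Control and 0.525 CPM in Induced. In the parental line TCERG1L-AS1 had 0 counts of 13332289 in all, which allows up to 0.225 CPM by counting error, a limit above its Control mean of 0.213 CPM.

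CARD8-AS1, DNAJC9-AS1 and VIM-AS1 followed, the first and last of them likewise chosen through Induced, with mean raw counts of 6 and 8.2 in Control. CARD8 encodes an inflammasome protein, and CARD8-AS1, which starts within it on the other strand, held 0.152, 0.0583, 0.222, 0.241 and 0.736 CPM in Control and 1.64, 0.516, 2.34, 2.58 and 3.08 CPM in Induced. Only Induced 2 and Control 5 overlapped, and the log2 fold change was 2.76 ± 0.575 (SE). DNAJC9-AS1, next to the gene of a histone-binding co-chaperone, held 0.659, 0.233, 0.388, 0.676 and 4.68 CPM in Control and 8.85, 1.17, 11.5, 7.17 and 11.3 CPM in Induced. Here too Control 5 lay above Induced 2, and the log2 fold change was 2.54 ± 0.774 (SE; edgeR adjusted p = 0.0267). Leaving out any library other than Control 5 or Induced 2 ended this call (2 of 10 fits kept it, with log2 fold changes from 2.29 to 3.97), and with 1 surrogate variable the value was 1.33 (adjusted p = 0.128). VIM-AS1 shares its start region with vimentin, the intermediate filament protein of mesenchymal cells. It held 0.101, 0.408, 0.61, 0.0966 and 0.822 CPM in Control and 3.72, 0.516, 2.66, 2.62 and 2.01 CPM in Induced, again with Control 5 above Induced 2. Its log2 fold change was 2.45 ± 0.591 (SE), beside 1.44 for VIM itself (edgeR adjusted p = 0.0182). Without the 2 libraries between the groups the log2 fold changes were 4.36 for TCERG1L-AS1, 3.76 for CARD8-AS1, 4.25 for DNAJC9-AS1 and 3.18 for VIM-AS1, and with 1 surrogate variable 2.55, 1.95, 1.33 and 1.90.

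Other antisense RNAs that rose were more abundant or more even. THAP9-AS1, opposite a gene derived from a transposase, held 3.4, 2.33, 1.28, 4.59 and 11.2 CPM in Control and 14.5, 8.26, 14.3, 12.3 and 10.5 CPM in Induced. Control 5 lay within the Induced range, and the log2 fold change was 1.38 ± 0.462 (SE; edgeR adjusted p = 0.0353), a call that was lost in 8 of 10 fits with 1 library left out, all but those without Control 5 or Induced 2. OTUD6B-AS1, named for a deubiquitinase, held 37.1, 29.5, 24.7, 37.1 and 59.1 CPM in Control and 77.5, 59.1, 65, 71 and 64.9 CPM in Induced. The groups did not overlap, although Control 5 and Induced 2 both rounded to 59.1 CPM, and it rose by a log2 fold change of 0.85 ± 0.218 (SE; edgeR adjusted p = 0.0182). LIPT2-AS1, opposite a gene of lipoate attachment, went from 0.919 ± 0.249 to 2.01 ± 0.449 CPM (SD, n = 5 each) with no overlap. ENTPD1-AS1 and ZNF561-AS1 were the remaining RNAs whose Induced libraries all lay above the Control libraries, with log2 fold changes of 0.65 and 0.56. PRKAG2-AS1 and HDAC2-AS2 rose by 1.44 and 0.72 on the log2 scale with edgeR adjusted p of 0.0481 and 0.0483, and both had overlapping groups. The calls of these 2 and of ENTPD1-AS1 and ZNF561-AS1 were also lost without any one library other than Control 5 or Induced 2, whereas that of OTUD6B-AS1 was kept in 10 of 10 such fits.

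**Figure D2:**
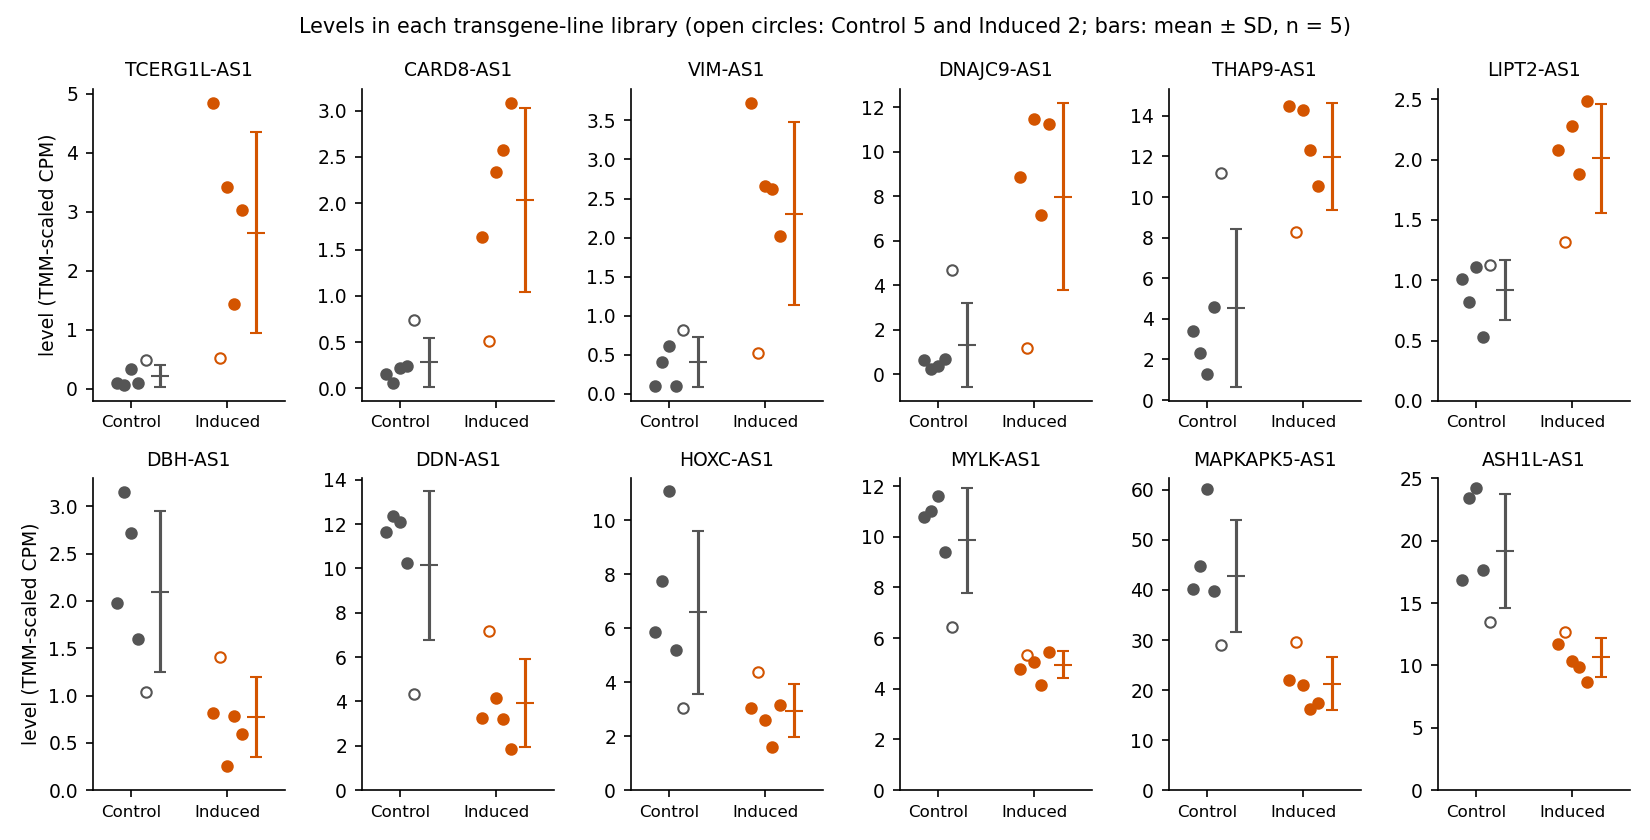
Level in CPM (linear vertical axes, one scale per panel) of 12 antisense RNAs in the 5 Control and 5 Induced libraries, 6 that rose above and 6 that fell below, with open circles for Control 5 and Induced 2 and bars for mean ± SD. The open circles lie closest to the other group in most panels, as for DNAJC9-AS1 with 4.68 and 1.17 CPM.

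Among the RNAs that fell, DBH-AS1 and DDN-AS1 had the largest changes. DBH-AS1, named for the enzyme that makes noradrenaline from dopamine, held 1.98, 3.15, 2.72, 1.59 and 1.04 CPM in Control and 0.819, 1.41, 0.253, 0.782 and 0.592 CPM in Induced. Induced 2 lay above Control 5, and the log2 fold change was -1.40 ± 0.41 (SE), a description since the RNA met the rule through Control. DDN-AS1, named for dendrin, held 11.7, 12.4, 12.1, 10.2 and 4.33 CPM in Control and 3.27, 7.18, 4.18, 3.22 and 1.84 CPM in Induced. Leaving aside Control 5, every Control library exceeded every Induced library, and the log2 fold change was -1.35 ± 0.364 (SE; edgeR adjusted p = 0.0194), a call lost without Induced 1 or Induced 4. TMEM132D-AS1 and THBS2-AS1, the latter named for the matrix protein thrombospondin-2, were more abundant and fell from 39 ± 19.9 to 16.8 ± 5.84 CPM and from 31.5 ± 14.4 to 14.2 ± 4.38 CPM (SD, n = 5 each). The call of TMEM132D-AS1 was lost without any one library other than Control 5 or Induced 2, and that of THBS2-AS1 without Induced 1, 3 or 4. In all, 20 antisense RNAs were called lower with a log2 fold change of -1 or below. They held DBH-AS1, FAM135A-AS1, MYG1-AS1 and TMSB15B-AS1, which met the rule through Control. A further 8 were called higher with a log2 fold change of 1 or above. TCERG1L-AS1, CARD8-AS1, VIM-AS1, FLG-AS1 and LIPT2-AS1 among them met the rule through Induced, so these counts are a description. No share over all genes at this limit stands beside them, so they are not read as a trait of the antisense RNAs. Beyond 1.5-fold, 16 of the 262 antisense RNAs were called higher and 48 lower, beside 2349 and 2184 of all 13038 genes tested.

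Several RNAs fell with clean or nearly clean separation. MAPKAPK5-AS1, opposite a kinase that acts downstream of p38, held 40.2, 44.8, 60.1, 39.7 and 29.1 CPM in Control and 22.1, 29.6, 21, 16.2 and 17.4 CPM in Induced. Only Induced 2 reached above Control 5, and the log2 fold change was -1.01 ± 0.222 (SE; edgeR adjusted p = 0.0175). MYLK-AS1, which meets the 3′ end of the myosin light chain kinase gene, held 10.8, 11, 11.6, 9.42 and 6.45 CPM in Control and 4.76, 5.35, 5.06, 4.14 and 5.45 CPM in Induced. The groups did not overlap, and the log2 fold change was -0.99 ± 0.186 (SE; edgeR adjusted p = 0.0175). ASH1L-AS1, named for a histone methyltransferase, held 16.9, 23.5, 24.2, 17.7 and 13.5 CPM in Control and 11.7, 12.7, 10.4, 9.89 and 8.71 CPM in Induced. These groups were also apart, with a log2 fold change of -0.84 ± 0.191 (SE; edgeR adjusted p = 0.0175). The other called RNAs whose Induced libraries all lay below the Control libraries were FAM135A-AS1, ZNF529-AS1, MYG1-AS1, SBNO1-AS1, TMSB15B-AS1, JMJD1C-AS1, CYP4A22-AS1, PIK3CD-AS2, PPP1R14B-AS1, PSMG3-AS1, ENTPD3-AS1 and FOXP4-AS1, with log2 fold changes from -1.18 for the first to -0.49 for the last. The calls of MAPKAPK5-AS1, MYLK-AS1, ASH1L-AS1, ZNF529-AS1, SBNO1-AS1, JMJD1C-AS1 and PPP1R14B-AS1 were kept in 10 of 10 fits with 1 library left out. The other 8 lost theirs in at least 1, ENTPD3-AS1 in all but the fit without Control 5.

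Of the 6 most abundant antisense RNAs, SLC16A1-AS1 and OTUD6B-AS1 (described above) were called, beside 26.3% of all antisense RNAs and 39.8% of all genes. SERTAD4-AS1, also among the 6, had a log2 fold change of 0.71 and was not called (edgeR adjusted p = 0.117). EPB41L4A-AS1, the highest of the 6, held 108, 115, 128, 112 and 118 CPM in Control and 105, 99.7, 98.4, 81.3 and 60.4 CPM in Induced. Its groups did not overlap, yet its log2 fold change of -0.39 ± 0.164 (SE) had an edgeR adjusted p of 0.0747. PRR34-AS1 held 53.9, 40.1, 12.1, 72 and 119 CPM in Control and 120, 104, 118, 121 and 142 CPM in Induced. Only Control 5 reached the Induced range, and with a log2 fold change of 1.02 ± 0.431 (SE) it did not pass either (edgeR adjusted p = 0.0739). FGD5-AS1, named for an exchange factor of small GTPases, had 79 ± 23.5 and 87.6 ± 13.5 CPM (SD, n = 5 each; edgeR adjusted p = 0.553). SLC16A1-AS1, opposite the gene of a lactate transporter, was the most abundant RNA to be called and fell from 82.6 ± 30.4 to 49.6 ± 13.1 CPM (edgeR adjusted p = 0.0442), with overlapping groups, a call lost without any one library other than Control 5 or Induced 2.

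Grouped by the gene in the name, each family had few members, and its counts stand beside the 39.8% of all genes that were called. Of the 3 HOX cluster antisense RNAs tested, which lie among the homeobox genes of body patterning, HOXC-AS1 and HOXB-AS1 were called lower. HOXB-AS1 held 29, 32.3, 45.5, 23.4 and 13.5 CPM in Control and 9.97, 18.8, 11.3, 16.3 and 16.6 CPM in Induced, a log2 fold change of -0.97 ± 0.296 (SE; edgeR adjusted p = 0.0264). HOXC-AS1 had a log2 fold change of -1.15 ± 0.346 (SE; edgeR adjusted p = 0.0255), and in both RNAs Control 5 lay within the Induced range. With 1 library left out, the call of HOXB-AS1 was kept only without Control 4 or 5 or Induced 2 or 5, and that of HOXC-AS1 only without Control 1, 4 or 5 or Induced 2 or 5. HOXC-AS3, at about 1 CPM in each group, had one of 0.31 (edgeR adjusted p = 0.395). Of the 19 named for zinc finger proteins, ZNF561-AS1, ZNF436-AS1 and ZNF407-AS1 were called higher and ZNF529-AS1 and ZNF571-AS1 lower, with a median of 0.10. Of the 5 named for kinases, PRKAG2-AS1, opposite a regulatory subunit of AMP-activated kinase, rose while MAPKAPK5-AS1 and MYLK-AS1 fell. The 4 named for ubiquitin ligases and deubiquitinases had OTUD6B-AS1 called higher and FBXL19-AS1 lower, and of the 2 named for RNA processing and translation genes RPL26L1-AS1 was called lower. Among 20 antisense RNAs with reported roles in cancer cell lines, VIM-AS1 was called higher and 7 were called lower (MAPKAPK5-AS1, HOXB-AS1, ASH1L-AS1, PCBP1-AS1, KCNMB2-AS1, FOXP4-AS1 and DLGAP1-AS1), with a median of -0.05. These 8 of 20 (40%) lie at the share of all genes, and 26.3% of all antisense RNAs were called. By direction 35% of the list were called lower and 5% higher, beside 19.8% and 20% of all genes. VIM-AS1 met the rule through Induced.

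By position against the gene of the name, 134 tested RNAs overlapped it at the 5′ ends. Of these 11 (8.21%) were called higher and 22 (16.4%) lower, with a median log2 fold change of -0.08. Of the 60 where one gene lay inside the other, 3 (5%) were called higher and 17 (28.3%) lower (median -0.31). Of the 42 that overlapped at the 3′ ends, 1 (2.38%) was called higher and 9 (21.4%) lower (median -0.09). Over all tested genes 20% were called higher and 19.8% lower, and over all antisense RNAs 6.49% and 19.8%. The 51 RNAs that share no exon base with a gene on the other strand had 2 called higher and 10 lower (19.6%), with a median of -0.20. The 211 that do share exon bases had 15 called higher and 42 lower (19.9%), with a median of -0.12, and thus made up most of both counts. The part of tags from the other strand was not tested.

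Base composition moved with the direction of change. The median GC content of the canonical transcript was 44.7% for the RNAs called higher, 52.9% for those called lower and 50% for those not called. Of the 17 called higher 6 met the rule only through Induced, and of the 52 called lower 5 only through Control. They were not set aside here, so these values and the counts below are a description. In the third of antisense RNAs with the lowest GC content, at or below 46.3%, 12 were called higher and 12 lower. In the third above 53.7%, 3 were called higher and 24 lower. Between these limits 2 were called higher and 16 lower. As percents, 13.8% were called higher and 13.8% lower at or below the lower limit, and 3.41% and 27.3% above the upper one. Over all tested genes 32.3% were called higher and 5.15% lower at or below the lower limit, and 7.11% and 39.0% above the upper one. Both sets thus had more higher calls at low than at high GC content. Only all tested genes had more higher than lower calls at low GC content. The part of GC content in the members' changes was not tested, and with offsets for GC content in the fit edgeR called 11 higher, 8 of them among the 17, and 42 lower, 30 of them among the 52. That fit called 26.7% of all genes.

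**Figure D3:**
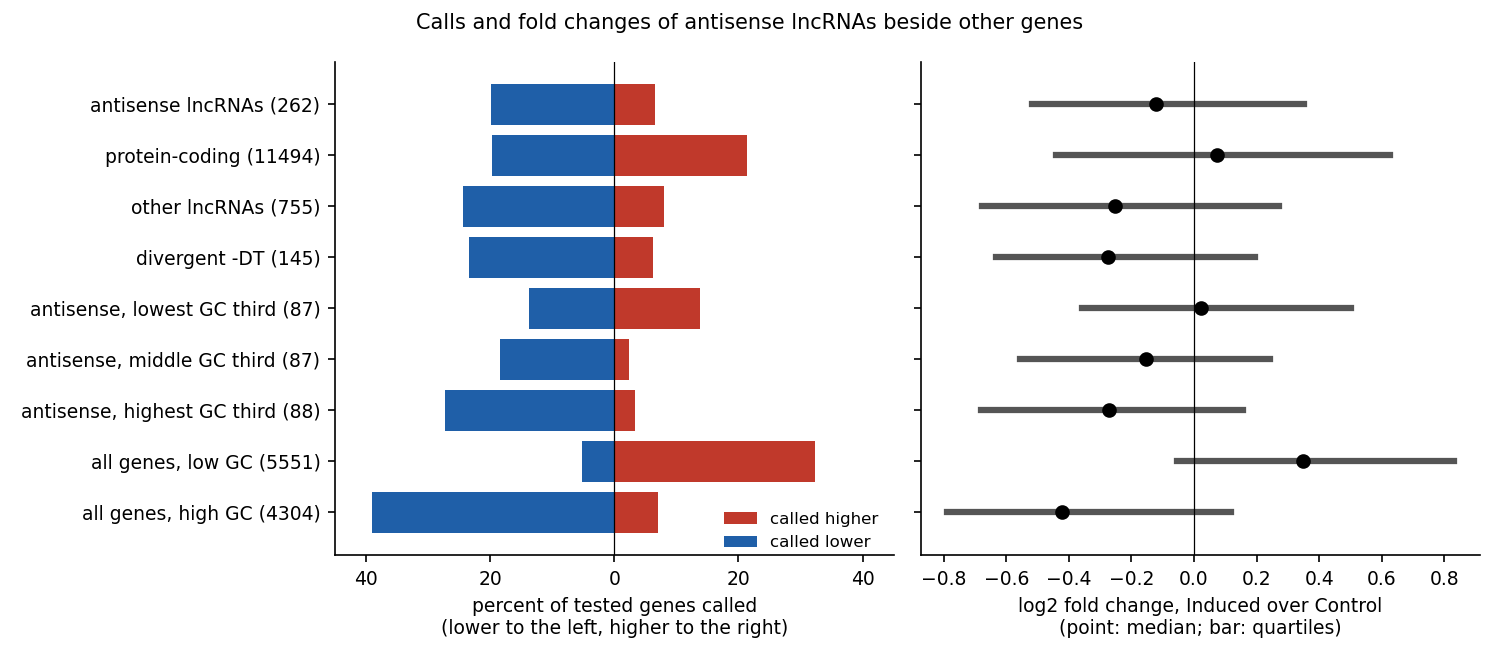
Left, percent of tested RNAs called lower (bars to the left) and higher (to the right) in Induced for the antisense RNAs, their GC classes and other gene classes, with the number tested in brackets. Right, the median log2 fold change (point) and quartiles (bar) of the same classes. Antisense RNAs had 6.49% called higher beside 21.4% of protein-coding genes, and 8.08% of the other lncRNAs.

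A gene with the member's base name was listed for 257 of the antisense RNAs, and both genes of 201 pairs were tested. Across these pairs the log2 fold changes of antisense RNA and named gene had a Pearson r of 0.16 and a Spearman rho of 0.17, a description over genes that are not independent replicates and that share the same 10 libraries. By position r was 0.17 over 130 pairs at the 5′ ends, 0.22 over 33 pairs at the 3′ ends and 0.015 over 35 nested pairs. Of the named genes 58 were called higher and 23 lower (28.9% and 11.4%), with a median log2 fold change of 0.23, against -0.12 for the antisense RNAs.

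Both genes were called in 21 pairs. In 6 pairs both rose, among them VIM and VIM-AS1, DNAJC9 (0.50; edgeR adjusted p = 0.0444) and PRKAG2 (0.92; adjusted p = 0.0264). In 6 pairs both fell, and these were DDN, MYG1, MYLK, PRKCZ, FAM131B and FOXP4, with log2 fold changes of the named gene from -1.19 for MYG1 to -0.50 for MYLK. In the other 9 pairs the antisense RNA fell and the named gene rose. These held LIX1L, with 2.96 against -0.91 for LIX1L-AS1, FBXL19, with 1.5 against -0.78, GTF2A1, with 1.11 against -1.01, and ASH1L, with 0.89 against -0.84, besides SBNO1, FGF12, RASAL2, PCBP1 and RASSF8. Named genes were thus called higher in 25% of the 36 pairs whose antisense RNA was called lower, and lower in 16.7%, near their shares over all pairs. None of the 11 pairs with the antisense RNA called higher had a named gene called lower (11.4% over all pairs). Of the named genes in these 11 pairs 54.5% were called higher, beside 28.9% over all pairs, and 10 had a log2 fold change above 0. In the 36 pairs with the antisense RNA called lower, 16 named genes had one below 0. With a median of 0.23 over the named genes of all 201 pairs, values above 0 were the more common sign in any case. Some of the 11, such as VIM-AS1 and CARD8-AS1, met the rule through Induced, so these counts are a description.

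**Figure D4:**
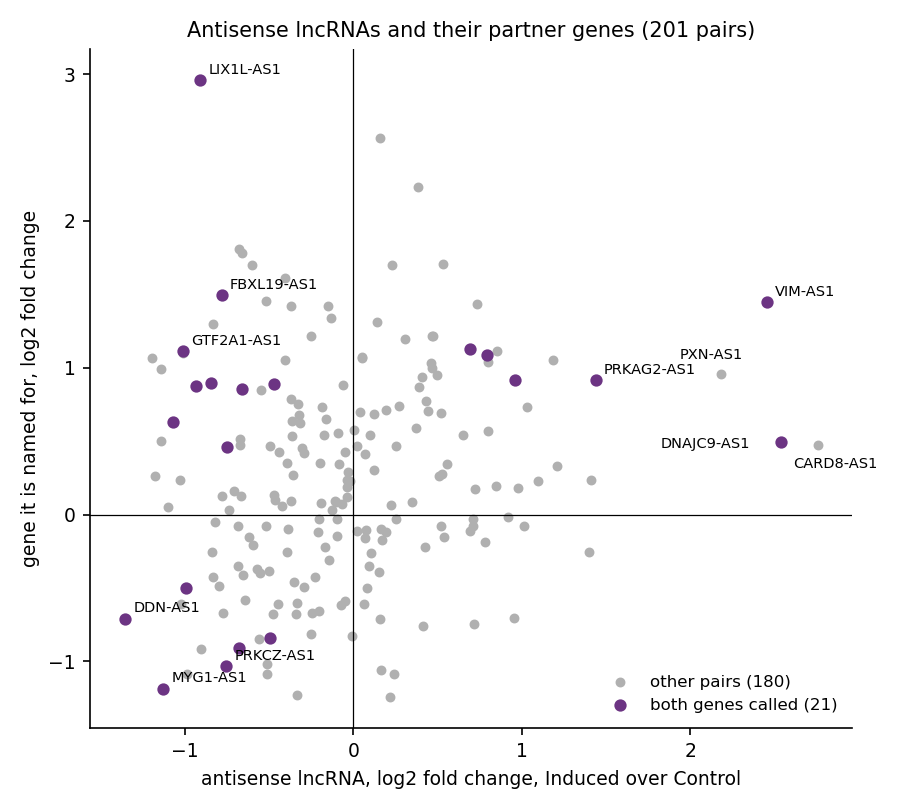
Log2 fold change, Induced over Control, of each antisense RNA (horizontal axis) and of the gene it is named for (vertical axis) in the 201 pairs with both tested, with the 21 pairs in which both were called in purple. The points scatter over all quadrants, with r = 0.16, and LIX1L-AS1 lies highest at 2.96.

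In the parental line 67 of the antisense RNAs had enough counts to be tested, and none was called by edgeR, as over all 9124 genes (0%), nor by DESeq2. The 67 held 2 of the 17 RNAs called higher with induction and 19 of the 52 called lower. Most of the called RNAs were thus not tested for doxycycline itself in this fit. At an unadjusted p of 0.05, 3 of the 67 passed, beside 2.93% of all genes, and all 3 had an edgeR adjusted p of 0.997. KDM4A-AS1 held 39, 11.3 and 6.42 CPM in No Dox and 0.697, 2.72 and 6.36 CPM in With Dox. The lowest No Dox library lay just above the highest With Dox library, and the log2 fold change was -2.65 ± 0.87 (SE). KRT10-AS1 and PPP1R26-AS1 had log2 fold changes of -1.38 and 1.13. The median over the 67 was -0.04. The remaining antisense RNAs did not pass the base mean filter here. With filterByExpr 113 were tested and 5 had an unadjusted p under 0.05, and with no filter 261 and 15, with none called by edgeR in either.

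Whether the transgene line responded differently from the parental line was tested in 1 fit over all 16 libraries. Of 185 antisense RNAs 5 (2.70%) were called by edgeR, beside 2.98% of all 12265 genes, so the share was at the background. MAPKAPK5-AS1 held 14.4, 11.9 and 22.8 CPM in No Dox and 34.1, 25.3 and 25.4 CPM in With Dox, with every With Dox library above every No Dox library. The log2 fold change was 0.78 ± 0.449 (SE) there, beside -1.01 with induction, and the difference of the log2 fold changes was -2.01 ± 0.431 (SE; edgeR adjusted p = 0.0372). ASH1L-AS1 held 6, 10.7 and 16.6 CPM in No Dox and 22.3, 14 and 23 CPM in With Dox, with a difference of -1.86 ± 0.454 (SE; adjusted p = 0.0433). EPB41L4A-AS1 held 71.3, 73.7 and 121 CPM in No Dox and 160, 164 and 106 CPM in With Dox, which overlap, with a difference of -1.30 (adjusted p = 0.04997). HDAC2-AS2 held 9.59, 7.73 and 8.47 CPM in No Dox and 3.83, 2.72 and 3.97 CPM in With Dox, with no overlap, and its difference was 1.83 ± 0.466 (SE; adjusted p = 0.0459). CYP4A22-AS1 rested on 0, 2 and 0 counts in No Dox and 19, 2 and 3 in With Dox, 19 of them in 1 library, with a difference of -4.39 ± 1.09 (SE; adjusted p = 0.0445). These calls lay close to the threshold: leaving out 1 library at a time gave 0 to 27 calls, with 0 in 11 of the 16 cases, namely without any one of Control 1 to 4, Induced 1, 3, 4 or 5, No Dox 1, or With Dox 1 or 3.

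**Figure D5:**
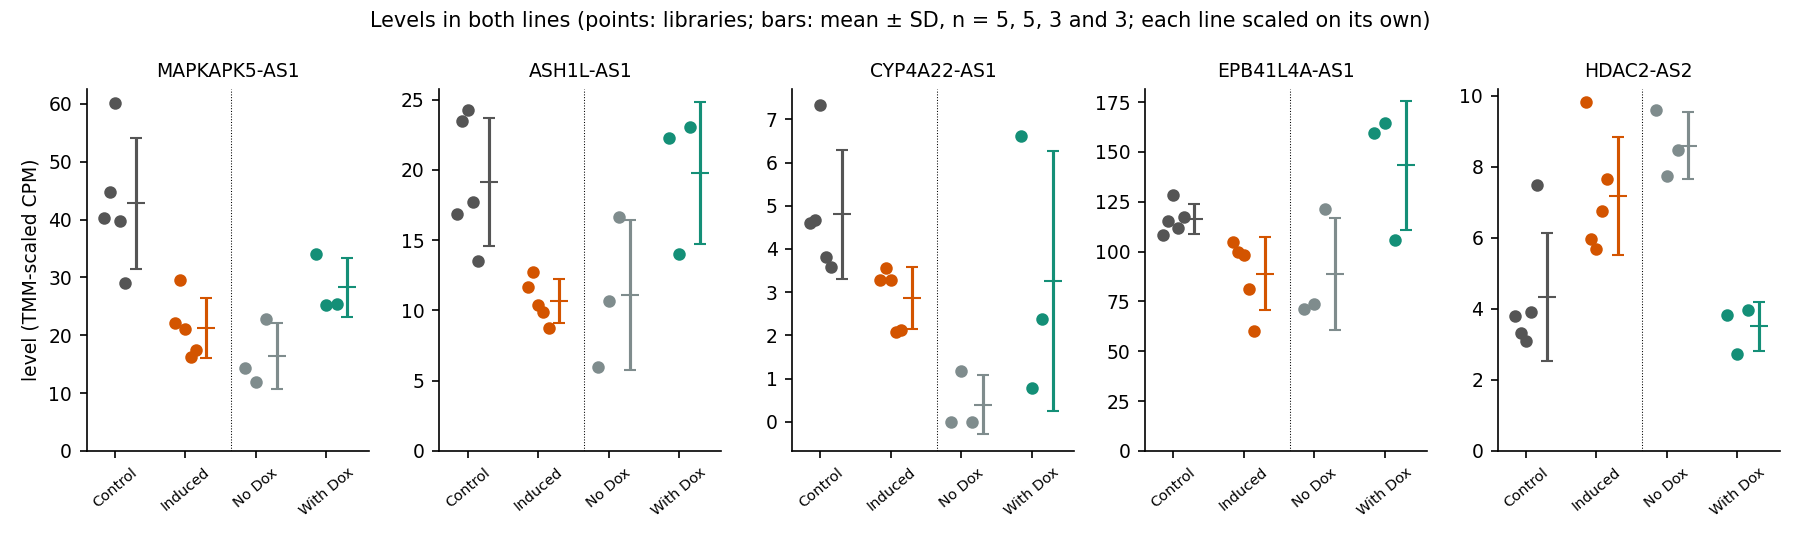
Level in CPM (linear vertical axes, one scale per panel) of the 5 antisense RNAs called in the test of the difference between the lines, in each Control, Induced, No Dox and With Dox library, with bars for mean ± SD. HDAC2-AS2 was lower in all With Dox libraries, at most 3.97 CPM, than in any No Dox library, at least 7.73 CPM, and the other 4 had higher With Dox than No Dox means.

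The antisense RNAs made up a larger share of gene counts in the parental libraries, 0.477 to 0.771%, and most of the excess was TUBA1B-AS1. This RNA, opposite the α-tubulin gene TUBA1B, averaged 3709 CPM there and 1.66 CPM in the transgene line. Without it the summed level was 2570 to 2848 CPM in No Dox and 2592 to 2805 CPM in With Dox. In the parental libraries its counts followed those of TUBA1B: 3110, 6835 and 9477 in No Dox beside 3044, 6920 and 9599 for TUBA1B, and 12739, 11639 and 5791 in With Dox beside 12883, 11743 and 5842. Over the transgene libraries it had 313 counts beside 905017.

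The same was then counted for every antisense RNA whose exons hold the annotated 3′ end of a listed gene on the other strand, a comparison chosen after these values were seen. There were 41, of which 18 had at least 60 parental counts of that gene. The median ratio of antisense RNA to the other gene was 0.969 in the parental line and 0.204 in the transgene line. Counts lay within 10% of each other in at least 4 of 6 parental libraries for TUBA1B-AS1, MCM3AP-AS1, PXN-AS1 and NOP14-AS1, and for no pair in as many as 4 of the transgene libraries. PXN-AS1, for example, had 3785 counts beside 3821 for PXN, the gene of the focal adhesion protein paxillin, in the parental line and 1712 beside 32795 in the transgene line. Of the 10 antisense RNAs with a mean level more than 4-fold higher in the parental line all share exon bases with a gene on the other strand, and none of the 51 without shared bases did so. A further 6 were more than 4-fold lower there, 3 of them among the 51. The 5 RNAs called in the test between the lines all share exon bases with a gene on the other strand, as 80.6% of the antisense RNAs do, from 22 for CYP4A22-AS1 to 2200 for EPB41L4A-AS1. The cause was not tested, and line and sequencing cannot be told apart here.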

How the data were processed

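QuantSeq REV 3′ tag libraries of cytoplasmic RNA were analysed from 16 samples, grouped by the sample titles. The authors reduced the reads with the Lexogen QuantSeq 2.2.3 pipeline for human GRCh38 and deposited raw counts per Ensembl gene, 1 file per library; the aligner, annotation release and use of strand are not given in the sources used here. The 92 spike-in entries and 5 summary entries were left out of library sizes and tests. Gene names, types, exons and GC content came from GENCODE release 44, which named 56104 genes, and sequences from GRCh38.

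The members and gene lists were chosen with earlier results of these data known. Counts were tested with edgeR 4.0.16 in R 4.3.3 (quasi-likelihood F test, trimmed mean of M values scaling), over genes whose mean count after scaling by DESeq2 size factors exceeded 20, with Benjamini-Hochberg adjustment over all tested genes and calls at an adjusted p below 0.05. Control and Induced, No Dox and With Dox, and the difference between the lines were fitted separately. Alternatives used DESeq2 1.42.0 and sva 3.50.0, other scalings and filters, offsets for GC content, a replicate block and leaving out libraries. The common coefficient of biological variation came to 0.320 (transgene) and 0.444 (parental). Induced 1 and 3, the most alike libraries of a group, still differed beyond sampling noise (chi-square divided by its degrees of freedom 4.55), and all libraries were kept as separate replicates. The edgeR fit of Induced against Control was also run on simulated counts with known changes, and its outcome is not reported here. Counting limits cover counting error only, since tags without molecular identifiers are not independent molecules.

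Named RNAs were TCERG1L-AS1, the 8 called RNAs with the largest rise and the 8 with the largest fall, called RNAs whose groups did not overlap, the 6 most abundant, the HOX list, those with an unadjusted p below 0.05 in the parental line and those called between the lines. Other RNAs are named as members of a group or pair.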

Additional observations from a re-analysis of the deposited data

Results flagged for a closer look

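Of 88 groups of 5 libraries examined for a single distant value among the named antisense RNAs, 7 had one, and about 1 in 20 is given by chance. In 5 of the 7 the distant library was Control 5, with 0.736 CPM for CARD8-AS1, 4.68 CPM for DNAJC9-AS1, 2.77 CPM for PRKAG2-AS1, 4.33 CPM for DDN-AS1 and 7.49 CPM for HDAC2-AS2, each on the side of the Induced libraries. In the other 2 it was Control 3, with 16 CPM for TNS2-AS1 and 7.32 CPM for CYP4A22-AS1, each above the other Control libraries. Control 5 and Induced 2 lay between the groups for most called genes as well, and the cause was not tested.

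For 5 of 185 antisense RNAs (2.70%, beside 2.98% of all genes) edgeR's test of the difference itself called the response to doxycycline different between the transgene and the parental line. On the log2 scale, transgene minus parental, the differences were -2.01 for MAPKAPK5-AS1, -1.86 for ASH1L-AS1, -4.39 for CYP4A22-AS1, -1.30 for EPB41L4A-AS1 and 1.83 for HDAC2-AS2, with Benjamini-Hochberg adjusted p from 0.0372 to 0.04997. None of the 5 was called in the parental line alone, where CYP4A22-AS1 and HDAC2-AS2 did not pass the base mean filter, and none of the 5 calls was left in 11 of 16 fits with 1 library left out.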

How the results depend on the processing

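The counts of 17 higher and 52 lower became 36 and 23 with scaling by total counts alone, where the median turned from -0.12 to 0.10, 27 and 48 with a replicate block, 0 and 0 with 1 surrogate variable, 11 and 42 with GC offsets, 20 and 42 with GC offsets and the block, 23 and 61 by DESeq2, 14 and 56 with DESeq2 size factors, and 12 and 37 without a filter. Without Control 5 and Induced 2 they were 50 and 78 (median -0.20), and over the 51 RNAs without shared exon bases 2 and 10 (median -0.20). Of all genes 39.8% were called in the main fit, 41.6% with total counts, 39.8% with the block and 0.00767% with 1 surrogate variable. The share was 26.7% with GC offsets, 31.1% with GC offsets and the block, and 45.9% by DESeq2. With DESeq2 size factors it was 39.6%, without a filter 17.3%, and without both libraries 64.3%. Leaving out 1 library gave 4 to 44 higher and 12 to 69 lower antisense RNAs, with a median of -0.19 to -0.12, beside 14.3% to 58.5% of all genes called. The higher calls were 44 without Control 5 and 27 without Induced 2, and 4 to 7 without any other library. Replicate numbers did not pair the transgene samples (correlations of deviations from the group means -0.25, 0.63, -0.37, -0.11 and 0.24), so the block is given here alone. Of the 36 called named RNAs 13 stayed called in every fit with 1 library left out that tested them, and none under every alternative. Among the 13, TCERG1L-AS1 was tested in 9 of the 10 fits and CARD8-AS1 in 7. These 2, VIM-AS1 and LIPT2-AS1 met the rule through Induced, so their part of the count is a description. Under any alternative 2 of the 44 named RNAs reversed, neither of them called. They were SERTAD4-AS1 (-0.085) and KDM4A-AS1 (0.44) with 1 surrogate variable, and KDM4A-AS1 (0.025) with GC offsets and the block.

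In the parental line the median of -0.04 was -0.17 with total counts, 0.029 without a filter and -0.080 to 0.18 with 1 library left out. Named RNAs that reversed there, none of them called, were TMEM132D-AS1 (-0.17 with total counts, -0.25 with the block), OTUD6B-AS1 (-0.053 and -0.00812, and -0.29 with 1 surrogate variable) and THAP9-AS1 (-0.62 with 1 surrogate variable). Leaving out 1 library gave -0.50 to 0.99 for THAP9-AS1, -0.83 to 0.54 for TMEM132D-AS1, -0.10 to 0.63 for TNS2-AS1, -0.77 to 0.23 for THBS2-AS1, -0.35 to 0.35 for OTUD6B-AS1 and -0.77 to 0.069 for PRR34-AS1. The 5 calls between the lines became 17 by DESeq2, 2 with DESeq2 size factors, 3 with total counts, 0 with filterByExpr, 1 without a filter and 0 to 27 with 1 library left out. The causes were not tested. The lower depth of the parental libraries limits what can be detected there.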
